A study of Mus musculus with 16 samples.

Results

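The genes described are 10 hair keratins: 6 keratins of the inner root sheath (Krt25, Krt27, Krt28, Krt71, Krt72 and Krt73) and 4 keratins of the hair shaft (Krt31, Krt34, Krt81 and Krt86). They were chosen by name, as the rows of the deposited count table whose Ensembl identifiers map to these symbols, and made up 10 of the 49585 genes in the table. RNA was sequenced from mouse epidermis that had been separated from the skin by heat shock. The mice were of the SKH-1 stock, which is hairless as an adult through a mutation of the gene Hr, and were 8 to 12 weeks old. Controls carried the K5Cre transgene, in which a keratin 5 promoter drives Cre recombinase in basal cells of the epidermis and its follicles. The knockouts were labelled as lacking C/EBPβ, a leucine zipper transcription factor encoded by Cebpb, in the epidermis only. Mice of each genotype were left unexposed or received ultraviolet B (UVB) at 100 mJ/cm2 and were sampled 6 h later, which gave 4 groups of 4 libraries. The labels do not say which libraries came from separate mice, so the tests rest on the spread among libraries. Each group held libraries rich in the X-linked Xist and libraries rich in the Y-linked Ddx3y, so no group came from a single mouse. Part of the spread may still be technical.

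Keratins are filament proteins that assemble from pairs of an acidic type I and a basic type II chain. In a growing hair follicle the progeny of the matrix cells build the shaft, whose keratins are cross-linked with keratin-associated proteins, and the inner root sheath, a sleeve that moulds the shaft and is lost near the skin surface. In SKH-1 mice the follicles degenerate after the first coat, and shortened follicle remnants and cysts stay in the skin.

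The type I members Krt25, Krt27, Krt28, Krt31 and Krt34 lie in the keratin cluster of chromosome 11, between positions 99315516 and 100050551 of GRCm38. The type II members Krt71, Krt72, Krt73, Krt81 and Krt86 lie in the cluster of chromosome 15, between positions 101459061 and 101802346. All were annotated by GENCODE M21 as genes of the minus strand except Krt86, which is on the plus strand. RefSeq promoter sequences of GRCm38.p6 matched 8 of the 10 members. The bases just before the transcription start of the 6 sheath genes are shown because 5 of them share the letters TATAAA. These are a form of the TATA box, the element that places the start of transcription. Capitals mark TATAAA on the gene's strand, and each sequence runs 5′ to 3′ and ends at the base before the annotated start.
Krt25, chr11:99322952-99323011, minus strand: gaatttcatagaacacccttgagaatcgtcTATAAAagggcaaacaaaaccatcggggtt
Krt27, chr11:99351119-99351178, minus strand: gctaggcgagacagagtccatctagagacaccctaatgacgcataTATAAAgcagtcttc
Krt28, chr11:99374904-99374963, minus strand: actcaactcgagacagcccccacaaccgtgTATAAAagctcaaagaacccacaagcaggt
Krt71, chr15:101743098-101743157, minus strand: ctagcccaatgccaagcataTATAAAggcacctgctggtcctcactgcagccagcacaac
Krt72, chr15:101786521-101786580, minus strand: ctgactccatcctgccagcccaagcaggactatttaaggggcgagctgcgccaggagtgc
Krt73, chr15:101802361-101802420, minus strand: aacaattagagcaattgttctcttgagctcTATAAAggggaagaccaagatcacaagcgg

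The 250 bases before the start of the shaft genes Krt31 and Krt34 are shown because both hold the letters CTTTGAA, a motif of the LEF and TCF factors of the Wnt pathway. Capitals mark TATAAA on the gene's strand and CTTTGAA.
Krt31, chr11:100050552-100050801, minus strand: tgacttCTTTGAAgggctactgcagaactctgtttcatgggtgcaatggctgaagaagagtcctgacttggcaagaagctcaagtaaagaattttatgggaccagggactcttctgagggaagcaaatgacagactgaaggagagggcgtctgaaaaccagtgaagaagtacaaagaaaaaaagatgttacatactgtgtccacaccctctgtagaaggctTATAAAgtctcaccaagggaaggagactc
Krt34, chr11:100041555-100041804, minus strand: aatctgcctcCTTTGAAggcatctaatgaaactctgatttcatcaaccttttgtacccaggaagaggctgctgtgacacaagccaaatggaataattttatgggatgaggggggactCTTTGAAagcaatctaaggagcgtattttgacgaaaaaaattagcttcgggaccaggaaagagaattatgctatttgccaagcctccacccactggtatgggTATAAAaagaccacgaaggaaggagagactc

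TATAAA on the gene's strand began within 40 bases of the start in 7 of the 8 promoters and in 2.31% of the 32851 promoters of the table. Krt72 was the exception for these exact letters, and variant forms of the TATA box were not searched. CTTTGAA, searched on both strands over 250 bases, was present in both shaft promoters and in 0 of the 6 sheath promoters, against 4.46% of all promoters. Krt34 held it at 2 places, and no match overlapped a TATAAA. The shaft genes Krt81 and Krt86 had no promoter sequence to search. Krt31 and Krt34 share stretches of exon sequence, so their matches may not be independent. TTGCNNAA, a form of the C/EBP motif, and TGANTCA, the AP-1 motif, were each found in 0 of the 8 windows on either strand, against 9.56% and 6.75% of all promoters. These are matches of letters in 1 window and not measurements of binding.

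Per kilobase of annotated exon, the sheath keratins Krt71, Krt27 and Krt25 had the highest levels of the set. Levels are given in CPM, the count of a gene scaled to the library total after TMM normalisation, and per kilobase where genes are compared with each other. Over the 16 libraries the mean level was 228 CPM per kilobase for Krt71, 193 for Krt27 and 113 for Krt25. Krt71 encodes the main type II keratin of the sheath, and its mutation gives wavy or missing coats in several mammals, while Krt25 and Krt27 are type I partners. Krt34, Krt86 and Krt81, keratins of the shaft cortex, followed with means of 50.4, 44.2 and 28.5 CPM per kilobase. Krt72 and Krt73, type II keratins of the sheath, had means of 19.3 and 10.95 CPM per kilobase. The lowest means were those of Krt28, a type I keratin of the sheath, with 8.16, and Krt31, a type I keratin of the shaft, with 5.17 CPM per kilobase. Neighbours in this order differed in the same direction in 15 or 16 of 16 libraries, except Krt34 above Krt86 (13 of 16), Krt72 above Krt73 and Krt28 above Krt31 (12 of 16 each). Near-identical stretches make some of these levels uncertain. Of the 50-base words of Krt86, 40.5% were also in another of 22 hair keratins compared, mostly Krt81, and for Krt81 the share was 34.1%. It was 33.1% for Krt34 and 28.1% for Krt31, whose closest copy was the other, and from 0.154% for Krt72 to 11.1% for Krt27 among the sheath genes.

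Levels spread widely between libraries of the same group, and nearly all members shared that spread. The summed level of the 6 sheath keratins was 1224, 398, 486 and 1507 CPM in replicates 1 to 4 of the unexposed controls. In the unexposed knockouts it was 227, 443, 216 and 482 CPM. Both groups held libraries that differed several-fold from each other, and their ranges overlapped. After UVB the sum was 1920, 851, 3464 and 725 CPM in the controls and 2789, 2067, 623 and 146 CPM in the knockouts. The highest library was 3.79 times the lowest in the unexposed controls, 2.23 times in the unexposed knockouts, 4.78 times in the exposed controls and 19.1 times in the exposed knockouts. In bulk tissue, fewer follicle cells and less keratin RNA per cell cannot be told apart.

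The 4 shaft keratins moved with the sheath. Their summed level was 291, 96.96, 109 and 413 CPM in the unexposed controls and 42.7, 122, 47.8 and 147 CPM in the unexposed knockouts. After UVB it was 408, 177, 757 and 179 CPM in the controls and 409.8, 373, 182 and 30.2 CPM in the knockouts. The same libraries stood out for both sums. Replicate 4 of the unexposed controls and replicate 3 of the exposed controls were the highest of their groups for 10 of 10 members, and replicate 1 of the exposed knockouts for 9 of 10. Replicate 4 of the exposed knockouts was the lowest of its group for 9 of 10 members, and the lowest of all 16 libraries for both sums. Among the unexposed knockouts, replicate 4 was the highest for 8 members, and the lowest library was replicate 1 or replicate 3 for 5 members each.

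**Figure D1:**
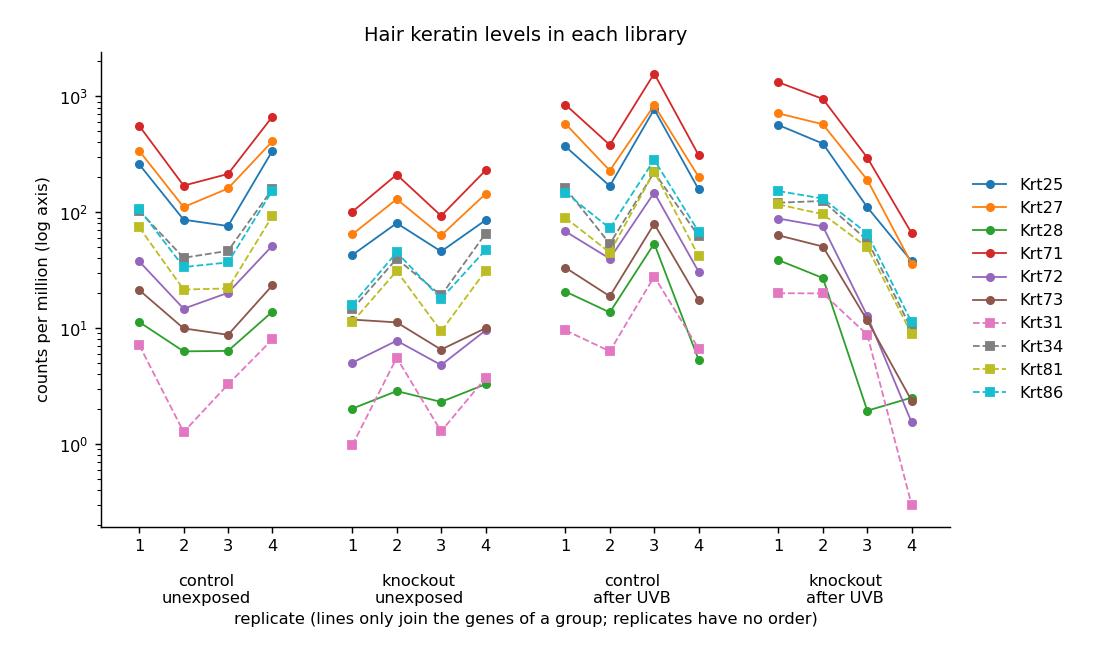
Level of each of the 10 hair keratins in each library, in CPM on a log axis, by group and replicate. Circles and solid lines are sheath keratins, squares and dashed lines are shaft keratins, and lines join the points of a gene within a group only to guide the eye. The genes rise and fall together between libraries, and Krt71 runs from 65.9 to 1572 CPM.

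Over the 16 libraries, Pearson's r between log2(CPM + 0.5) of pairs of members was 0.781 to 0.996, with a median of 0.948 over the 45 pairs. Taken as deviations from the group means, it was 0.723 to 0.995 with a median of 0.951. Without that step, the median was 0.945 within the sheath, 0.958 within the shaft, and 0.938 between sheath and shaft. As deviations it was 0.954, 0.968 and 0.933 in the same order. These are descriptions: the values of a library share its depth and tissue piece, and members that share sequence also share reads.

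The genes with the most similar profiles included other products of the sheath and shaft. Of 13168 tested genes whose mean was 1 CPM or more, the one most like the mean profile of the sheath members was Tchh (trichohyalin, the matrix protein that binds sheath filaments), with r = 0.993 and Spearman's rho = 0.991 over 16 libraries. Next came Padi3, an enzyme that turns arginine of trichohyalin into citrulline (r = 0.989), the mitochondrial iron carrier Slc25a37 (r = 0.986), the sheath keratin Krt26 (r = 0.986) and cornulin, Crnn (r = 0.984). Tspear, Crym and the fatty acid binding protein Fabp4 followed with r of 0.978, 0.97 and 0.969. For the shaft profile the order was Gprc5d, a receptor made in the hair cortex (r = 0.989), Krtap1-4 (0.989), Krt33a (0.987), Padi3 (0.983), Krtap1-3 (0.982), Krtap5-5 (0.981), Ly6g6d (0.979) and Krtap3-1 (0.978). Without the 2 libraries farthest from the median, r for these 16 entries stayed between 0.962 and 0.991. Tchh itself was at 564, 232, 293 and 870.0 CPM in the unexposed controls and 1570, 1060, 308 and 72.2 CPM in the exposed knockouts, so the low library of the exposed knockouts was low for it too. r was over 0.9 for 72 genes with the sheath profile and 77 with the shaft profile.

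Markers of other parts of the sample also varied between libraries, in other patterns. The sum of 9 interfollicular keratins was 20020 to 56840 CPM over all libraries, and in the exposed knockouts it was 30990, 33980, 36190 and 46340 CPM, highest where the hair keratins were lowest. The sum of 16 sebaceous gland genes was 1524 to 3179 CPM, but it holds Fabp5 at 542 to 1549 CPM, a gene the epidermis also makes. Some less abundant sebaceous genes varied more than the summed hair keratins. Awat1, an enzyme of wax synthesis, was at 49.02, 19.1, 18.02 and 23.2 CPM in the unexposed controls and 1.21, 9.38, 3.30 and 5.44 CPM in the unexposed knockouts. After UVB it was at 19.3, 76.8, 94.2 and 128 CPM in the controls and 71.5, 56.1, 4.15 and 32.2 CPM in the knockouts, so in the exposed controls it was highest in replicate 4, where the sheath sum was lowest. Over the 16 libraries the highest was 106 times the lowest for Awat1, 127 times for Pparg and 1371 times for Elovl3. It was 23.7 times for the sheath sum, which abundant genes dominate, but 96.2 times for the single member Krt72 and 93.3 times for Krt31. The lowest levels of Pparg and Elovl3 were 0.212 and 0.0979 CPM, so their ratios rest on values near 0. The sum of 17 outer root sheath and bulge genes was 1423 to 6073 CPM and that of 37 hair matrix regulators 1739 to 2225 CPM. Summed melanocyte markers were at 24.4 to 100.4 CPM, fibroblast and dermal papilla markers at 20.6 to 54.7 CPM, muscle markers at 3.09 to 8.39 CPM, immune markers at 178 to 740.0 CPM and endothelial markers, mostly Flt1, at 9.02 to 77.2 CPM. Of the 14 fibroblast and dermal papilla markers 13 had counts and 8 had enough to be tested. Replicates 1 and 4 of the exposed knockouts, the highest and lowest for most members, held 46.0 and 48.2 M counts, with 5.98% and 5.99% mitochondrial. Each group held libraries rich in the X-linked Xist and libraries rich in the Y-linked Ddx3y, 2 of each. In the exposed knockouts the libraries with high sheath sums, replicates 1 and 2, were the Xist-rich ones, and those with low sums, replicates 3 and 4, were the Ddx3y-rich ones. In each of the other 3 groups the 2 libraries with the highest sheath sums held 1 of each kind. The part of these measures in the spread of the hair keratins was not tested.

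Library totals ranged from 33.0 to 53.3 M counts, and 17741 genes passed the filter on low counts, all 10 members among them. Member counts per library ran from 14 (Krt31, replicate 4 of the exposed knockouts) to 68285 (Krt71, replicate 1 of the same group). Cebpb was at 155 to 186 CPM in the unexposed controls and 254 to 319.7 CPM in the exposed controls. In the unexposed and exposed knockouts it was at 0.177 to 0.875 and 0.609 to 3.04 CPM, so every library matched its label.

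The make-up of the set varied less between libraries than its level did. Krt71 took 34.3 to 41.3% of the counts of the 10 genes in any library, and Krt27 took 19.8 to 26.97%. Krt25 took 12.8 to 21.4%. The sheath genes together held 76.6 to 87.2% of the counts. Per kilobase, the summed type II over type I keratins of the sheath had a ratio of 0.732 to 0.883, while the summed sheath level differed 23.7-fold between the lowest and the highest library. In the shaft that ratio was 0.902 to 1.61. The sheath over the shaft, per kilobase, was 3.09 to 6.56.

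**Figure D2:**
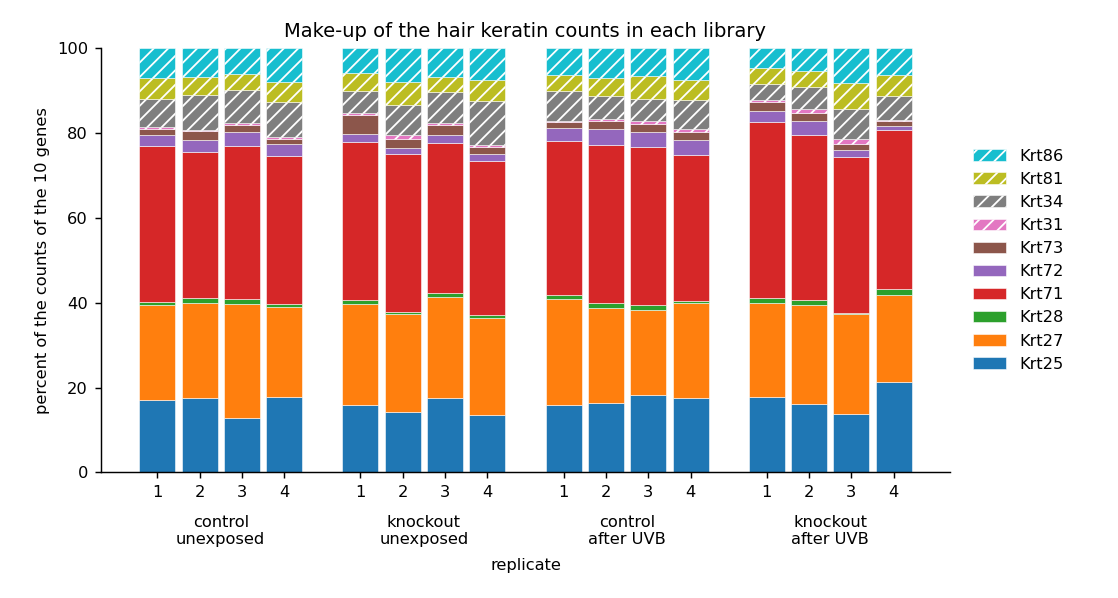
Share of each hair keratin in the summed counts of the 10 genes, in percent, for each library by group and replicate. Plain bars are sheath keratins and hatched bars are shaft keratins. Krt71, Krt27 and Krt25 hold most of the counts in every library, and the sheath genes hold 76.6 to 87.2%.

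The share of Krt72 did not overlap between the unexposed genotypes. It took 2.49, 2.97, 3.40 and 2.68% of the counts of the 10 genes in the unexposed controls and 1.87, 1.38, 1.82 and 1.52% in the unexposed knockouts. After UVB the share was 2.93, 3.87, 3.50 and 3.40% in the controls and 2.76, 3.09, 1.59 and 0.872% in the knockouts, where replicate 2 of the knockouts lay above replicate 1 of the controls. Krt73, its neighbour on chromosome 15, took 1.41, 2.01, 1.47 and 1.22% in the unexposed controls and 4.39, 1.99, 2.48 and 1.59% in the unexposed knockouts, with overlap. These shares were picked out after their values were seen and are given without a test.

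Deletion of C/EBPβ was compared first without UVB, to ask whether hair keratin RNA differs in epidermis that lacks the factor. All 10 members had lower mean levels in the unexposed knockouts, but 0 of 10 passed the test (edgeR quasi-likelihood F test, two-sided, Benjamini-Hochberg adjusted p under 0.05 over the 17741 genes). The members rose and fell together between libraries. A sign shared by all 10 is thus not 10 separate results, here or in the comparisons below. Across all genes 2.1% were called in this comparison, 1.14% as lower and 0.964% as higher. Log2 fold changes ran from -2.20 to -0.68 with a median of -1.35, against a median of 0 over all genes tested, with standard errors (SE) of 0.79 to 0.98 and adjusted p-values of 0.356 to 0.902. At an unadjusted p under 0.05 there was 1 member, Krt72, against 12.4% of all genes.

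For Krt72 the level was 37.7, 14.7, 20.2 and 51.6 CPM in the unexposed controls and 5.04, 7.80, 4.81 and 9.56 CPM in the unexposed knockouts, a log2 fold change of -2.20 (SE 0.94, edgeR adjusted p = 0.356). The lowest control lay above the highest knockout. Krt28 was at 11.3, 6.31, 6.37 and 13.9 CPM in the unexposed controls and 2.02, 2.87, 2.31 and 3.28 CPM in the unexposed knockouts, a log2 fold change of -1.86 (SE 0.92, edgeR adjusted p = 0.451). Its groups did not overlap either, and the other 8 members overlapped. Of all genes tested, 10% had groups that did not overlap in this comparison, 5.36% with the knockouts lower. Krt28 and Krt72 were called lower, as 2 of 10 members, when the model held only the 8 libraries compared, with edgeR adjusted p-values of 0.00465 and 0.0229, where 1.62% of the genes of that model were called lower. In a model chosen after the data were seen, which held the mean level of 13 other hair keratins equal, the log2 fold changes of the 8 members other than Krt28 and Krt72 turned positive (0.06 to 0.91). Their SE were 0.15 to 0.50 and their edgeR adjusted p-values 0.124 to 0.986, so 0 of the 8 were called. These changes are relative to the other hair keratins.

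For the abundant Krt71 the level was 557, 169.8, 214 and 669 CPM in the unexposed controls and 101, 211, 93.2 and 229 CPM in the unexposed knockouts. Replicates 1 and 4 of the controls were far above every knockout, and the other controls lay within the knockout range. Its log2 fold change was -1.34 (SE 0.83, edgeR adjusted p = 0.611). Krt34 was at 103, 40.5, 46.5 and 159 CPM in the controls and 14.6, 39.8, 19.2 and 65.3 CPM in the knockouts (log2 fold change -1.33, SE 0.79, edgeR adjusted p = 0.583). The other shaft genes Krt86, Krt81 and Krt31 had log2 fold changes of -1.40, -1.35 and -0.78.

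After UVB, 0 of 10 members passed the test between exposed knockouts and exposed controls, where 4.68% of all genes were called, 2.32% as lower and 2.36% as higher. All 10 log2 fold changes were below 0, from -0.69 to -0.04 with a median of -0.41 (all genes 0.04), and the groups overlapped for all 10 members, against 11.3% of all genes without overlap. The lowest edgeR adjusted p was 0.702 and 0 members had an unadjusted p under 0.05, against 20.3% of all genes. The sign rested on single libraries for 7 members (Krt25, Krt27, Krt28, Krt31, Krt71, Krt73 and Krt81), whose log2 fold changes became 0.13 to 0.67 without replicate 3 of the exposed controls. Without replicate 3 of the exposed knockouts the value became 0.09 for Krt31 and 0.06 for Krt73, and without replicate 4 it became 0.11 for Krt27, 0.16 for Krt71, 0.18 for Krt73 and 0.38 for Krt31.

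Averaged over both exposures, the difference between genotypes was called for 0 of 10 members. Of all genes 9.73% were called, 5.13% as lower and 4.6% as higher. All 10 members were below 0, which follows from the signs of the comparisons averaged and is no further result. Log2 fold changes were -1.44 to -0.41 with a median of -0.97 (all genes 0.03). Krt72 had the smallest edgeR adjusted p, 0.205, with a log2 fold change of -1.44 (SE 0.65), and Krt73 and Krt31 had changes of -0.45 (SE 0.56) and -0.41 (SE 0.68). Krt72 was the 1 member with an unadjusted p under 0.05, against 23.2% of all genes.

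The response to UVB was compared within each genotype. In controls all 10 members had higher mean levels after exposure, with log2 fold changes of 0.51 to 1.35 and a median of 0.95 (all genes -0.02), and 0 of 10 were called. Of all genes 35.8% were called in this comparison, 17.7% as higher and 18% as lower. At an unadjusted p under 0.05 there were 0 members, against 43.6% of all genes. For Krt71 the exposed controls were at 848, 381, 1572 and 311 CPM, where replicate 3 stood far above the others and the lowest replicates lay below the highest unexposed control. Its log2 fold change was 0.95 (SE 0.82, edgeR adjusted p = 0.412). Krt31 had the largest change, 1.35 (SE 0.98, edgeR adjusted p = 0.322), and Krt34 the smallest, 0.51 (SE 0.77, edgeR adjusted p = 0.663).

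In knockouts, Krt28 and Krt72 rose after UVB, so 2 of 10 members were called higher, against 32.2% of all genes called, 18.1% as higher and 14.1% as lower. Krt72 was at 88.3, 75.5, 12.8 and 1.54 CPM in the exposed knockouts, with replicates 1 and 2 far above every unexposed knockout and replicate 4 below all of them. Its log2 fold change was 2.72 (SE 0.96, edgeR adjusted p = 0.047). Krt28 was at 38.6, 27.1, 1.94 and 2.52 CPM, again with 2 high and 2 low libraries, and its log2 fold change was 2.75 (SE 0.94, edgeR adjusted p = 0.0402). The groups overlapped for all 10 members, against 35.8% of all genes without overlap. The other 8 members had log2 fold changes of 1.18 to 2.12 with edgeR adjusted p-values of 0.0716 to 0.304, and 5 of 10 members had an unadjusted p under 0.05 against 39.8% of all genes. The median over the members was 1.98, against 0.01 over all genes tested.

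In the knockouts, replicates 1 and 2 were rich in Xist and replicates 3 and 4 in Ddx3y in both exposures. In the Xist-rich knockouts Krt72 was at 5.04 and 7.80 CPM without UVB and 88.3 and 75.5 CPM after it. In the Ddx3y-rich knockouts it was at 4.81 and 9.56 CPM without UVB and 12.8 and 1.54 CPM after it. Krt28 was at 2.02 and 2.87 CPM without UVB and 38.6 and 27.1 CPM after it in the Xist-rich knockouts, and its values in the Ddx3y-rich ones were 2.31 and 3.28 CPM without UVB and 1.94 and 2.52 CPM after it. Both genes were higher after UVB in both Xist-rich knockouts, while the Ddx3y-rich knockouts overlapped with their unexposed counterparts. The exposed controls did not divide in this way. Their Xist-rich libraries, replicates 3 and 4, had Krt72 at 147.8 and 30.7 CPM and Krt28 at 53.7 and 5.35 CPM. For both genes these values lay on both sides of the Ddx3y-rich replicates 1 and 2. Those were at 68.3 and 39.8 CPM for Krt72 and 20.7 and 13.7 CPM for Krt28. The split was made with the levels already known, and the difference between the kinds was not tested.

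Both calls depended on the processing and on single libraries. Krt28 was called without replicate 3 or 4 of the exposed controls or replicate 3 or 4 of the exposed knockouts, and lost without any of the other 12 libraries (edgeR adjusted p-values of 0.0517 to 0.131). Krt72 was called without replicate 3 of the exposed controls or replicate 3 or 4 of the exposed knockouts, and lost without any of the other 13 (0.0554 to 0.132). Without replicate 4 of the exposed knockouts, the library lowest in hair keratins, 7 of 10 members were called higher, namely all 6 sheath genes and Krt31, and 13.2% of all genes were called higher. DESeq2 called 5 members (Krt25, Krt27, Krt28, Krt71 and Krt72) and 17.8% of the genes with an adjusted p. The limma voom fit called 0 members and 19.5% of all genes higher, and the edgeR fit of these 8 libraries alone called 0 members and 17.6%. When the mean level of the 13 other hair keratins was held equal, the members' changes with UVB turned negative. They were -0.43 to -1.50 in knockouts, with 7 of 10 members and 11.2% of all genes called lower, and -0.42 to -0.88 in controls, with 5 of 10 members and 16.3% of all genes called lower. Of the 13 genes in that covariate, 1 was called higher with UVB in controls and 5 in knockouts, Krt84 among them in both.

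The 2 UVB responses were not shown to differ. The test of their difference called 0 of 10 members and 0 of 17741 genes with edgeR (0% of all genes), where 5.88% of all genes and 0 members had an unadjusted p under 0.05. DESeq2 called 52 genes, 0 of them members. The knockout response was larger than the control response for all 10 members, by 0.46 to 1.51 on the log2 scale with SE of 1.09 to 1.36, and the SE was larger than the difference for 7 of 10.

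**Figure D3:**
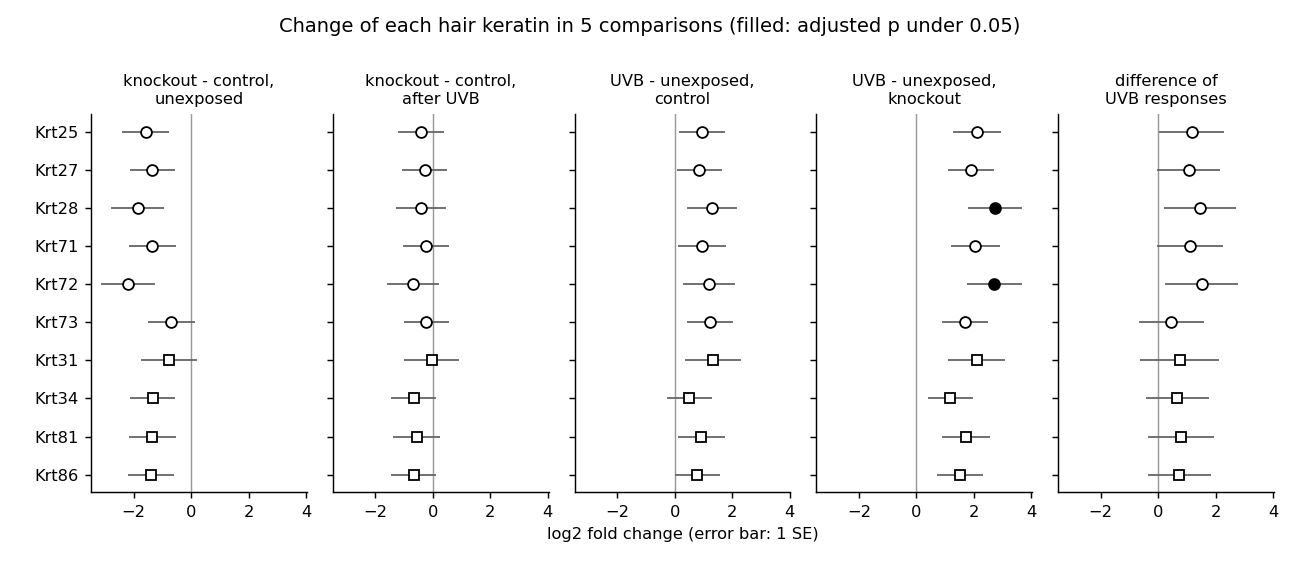
Log2 fold change of each hair keratin in 5 comparisons, with error bars of 1 standard error from the edgeR fit. Circles are sheath keratins, squares are shaft keratins, and filled points passed an adjusted p of 0.05. All points lie below 0 for the deletion and above 0 for UVB, and the 2 filled points are Krt28 and Krt72 in the knockouts. The genes vary together between libraries, so their shared signs are not separate results.

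Among the other hair follicle keratins, Krt84 and Krt75 fell with the deletion and 5 genes rose with UVB in knockouts. Of 14 listed, 13 were in the table and tested, and Krt85 was not analysed here. Krt84, a type II hair keratin that in humans is known from the papillae of the tongue, had the smallest p of the list. It was at 6.25, 2.19, 2.46 and 6.43 CPM in the unexposed controls and 0.947, 1.40, 1.07 and 0.906 CPM in the unexposed knockouts, where it fell 4.005-fold (edgeR adjusted p = 0.00411). Every unexposed control lay above every unexposed knockout. After UVB it was at 30.4, 31.7, 39.2 and 16.8 CPM in the controls and 11.4, 18.4, 10.1 and 17.5 CPM in the knockouts, above every unexposed library of the same genotype. It rose 6.78-fold in controls (edgeR adjusted p = 3.75e-06) and 13.2-fold in knockouts (edgeR adjusted p = 4.53e-07). In replicate 4 of the exposed knockouts, lowest for 9 of the 10 members, Krt84 was the second highest of its group. The unexposed difference was lost with limma voom (adjusted p = 0.162).

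Krt75, a type II keratin of the companion layer between sheath and outer root sheath, was at 16.4, 8.52, 6.31 and 19.8 CPM in the unexposed controls and 3.33, 4.26, 2.58 and 4.78 CPM in the unexposed knockouts. It fell in the comparison averaged over both exposures by 1.30 on the log2 scale (SE 0.35, edgeR adjusted p = 0.0269). That call was lost without replicate 1 or 4 of the unexposed controls, 1, 2 or 3 of the unexposed knockouts, 1 or 3 of the exposed controls, or 3 of the exposed knockouts (edgeR adjusted p-values of 0.0535 to 0.0674), and with no filter on low counts (0.0673). In knockouts Krt75 rose 3.73-fold with UVB (edgeR adjusted p = 0.0082), and so did Krt82, a keratin of the shaft cuticle (8.39-fold, 0.0036), Krt32, its type I counterpart (14.4-fold, 0.004), and the sheath keratin Krt74 (13.1-fold, 0.0247). Krt32, Krt74 and Krt82 were at most 7.22 CPM in any library, and all 3 calls were lost with limma voom. Krt74 was also lost without replicate 1 or 4 of the unexposed knockouts or replicate 1 or 2 of the exposed knockouts (0.0575 to 0.0856).

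**Figure D4:**
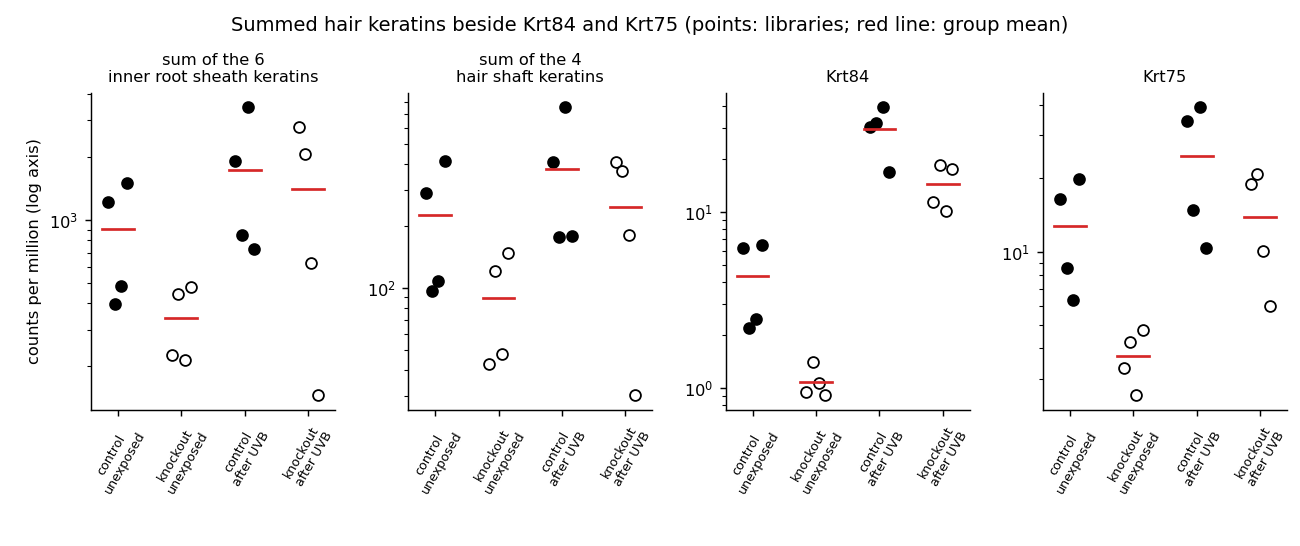
Summed sheath keratins, summed shaft keratins, Krt84 and Krt75 in each library, in CPM on log axes that differ between panels. Points are libraries, filled for control and open for knockout, and red lines are group means. The sums overlap between the groups of each comparison, while the exposed libraries of Krt84 lie above the unexposed ones of both genotypes.

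Over the 13 tested keratins of that list, 1 fell and 0 rose with the deletion in unexposed epidermis, against 1.14% and 0.964% of all genes. After UVB 0 were called with the deletion, against 4.68% of all genes, and 2 fell in the averaged comparison, against 5.13%. With UVB 1 rose in controls and 5 in knockouts, against 17.7% and 18.1% of all genes. The median log2 fold changes of these 13 keratins were -1.70, -0.24, -1.05, 1.04 and 3.07 in the same order. Those not yet named were at 5.93 to 175 CPM for Krt26, 3.67 to 132 for Krt33a, 4.19 to 118 for Krt33b, 5.79 to 149 for Krt83 and 0.960 to 37.8 for Krt39 over the 16 libraries, and Krt35, Krt36 and Krt40 were at 0 in some libraries.

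Keratin-associated proteins cross-link the shaft keratins, and their genes were tested in the same fit. Of 54 tested Krtap genes, 9 fell in unexposed epidermis (1.14% of all genes), 9 after UVB (2.32%) and 19 in the averaged comparison (5.13%). In these comparisons 0 Krtap genes rose. Their summed level was 6.95 to 9.88 times that of the 4 shaft keratins in the unexposed controls and 4.74 to 6.74 times in the unexposed knockouts, and 5.81 to 8.25 and 3.87 to 4.80 times after UVB. These ratios did not overlap between genotypes at either exposure and were not tested. The most abundant were Krtap8-1 and Krtap7-1, with averaged log2 fold changes of -1.56 (SE 0.56, edgeR adjusted p = 0.111) and -1.53 (SE 0.56, 0.116), which were not called.

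Of 19 tested proteins of the shaft and sheath, 2 fell in the averaged comparison of the genotypes, against 5.13% of all genes. Crisp1, a secreted cysteine-rich protein, was at 3.81 to 7.48 CPM in the unexposed controls and 0 to 0.812 CPM in the unexposed knockouts, and fell 8.44-fold in the average (edgeR adjusted p = 0.0131). Cdsn, corneodesmosin of the cornified layer, fell 1.34-fold (edgeR adjusted p = 0.0249), a call lost without replicate 3 of the unexposed controls, 2 of the unexposed knockouts, 2 of the exposed controls, or 1, 2 or 3 of the exposed knockouts (0.0505 to 0.0641). Padi1 and S100a3 had log2 fold changes of -1.40 and -1.11 that were not called. With UVB, 3 rose in controls, against 17.7% of all genes. In knockouts 5 rose and 1 fell, against 18.1% and 14.1% of all genes. S100a3, a calcium-binding protein of the cuticle, was among the 5 that rose (4.13-fold, edgeR adjusted p = 0.00787), a call lost with limma voom (0.055) and with the covariate (0.469).

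Of 36 tested regulators of the hair matrix, 1 rose and 2 fell in the averaged comparison, and their median log2 fold change was -0.04. Of all genes 4.6% rose and 5.13% fell. The Wnt ligand Wnt10a rose 2.04-fold (edgeR adjusted p = 0.00138). After UVB it was at 5.77, 8.81, 3.53 and 5.08 CPM in the controls and 16.4, 15.7, 15.2 and 12.5 CPM in the knockouts, and those groups did not overlap. The ligand Bmp2 fell 2.72-fold (edgeR adjusted p = 0.011), and the epithelial factor Elf5 fell 1.56-fold (edgeR adjusted p = 0.00464). Foxn1, whose loss makes nude mice, had a log2 fold change of 0.32 (SE 0.11, edgeR adjusted p = 0.0595) and was not called.

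Some keratins outside the hair lineages rose. Of 9 tested interfollicular keratins, 3 rose and 0 fell in the averaged comparison of knockouts with controls, where 4.6% of all genes rose and 5.13% fell. The 3 keratins were the basal keratins Krt14 (2.62-fold, edgeR adjusted p = 0.00275) and Krt5 (1.88-fold, 0.000901), and Krt79, a keratin of the follicle opening and gland duct (1.78-fold, 0.000997). The median log2 fold change of the 9 was 0.01. Their summed level did not rise, with means of 30580 CPM in unexposed controls and 28420 CPM in unexposed knockouts. After UVB the means were 37490 and 36870 CPM. Of 14 tested sebaceous genes 1 fell, Elovl3, a fatty acid elongase that is also made in the sheath (6.80-fold, edgeR adjusted p = 0.0251), and it was lost without replicate 1 of the unexposed controls, replicate 3 of the unexposed knockouts or replicate 4 of the exposed knockouts (0.0521 to 0.0524). Of 17 outer root sheath and bulge genes, Postn (3.87-fold, edgeR adjusted p = 9.29e-05) and the keratin Krt17 (1.51-fold, 0.0195) rose and the transcription factor Barx2 fell (1.25-fold, 0.0197). The Krt17 call was lost without replicate 3 of the unexposed controls or 1 of the unexposed knockouts (0.0508 and 0.0511), and the Barx2 call without replicate 2 of the unexposed knockouts or 4 of the exposed knockouts (0.0502 and 0.0528).

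Markers of other cell types were tested in the same averaged comparison, where 4.6% of all genes rose and 5.13% fell. Of 8 melanocyte genes, the transcription factor Mitf fell (1.70-fold, edgeR adjusted p = 0.0132). Of 8 immune genes, Cd74 (1.82-fold, 0.00274) and the Langerhans cell gene Cd207 (1.55-fold, 0.0371) rose, the latter a call lost when any of 11 libraries was left out. The other immune genes were not called. Their log2 fold changes were -0.69 for S100a8, -0.45 for Cd3e, -0.35 for Cd68, -0.13 for Trdc, 0.31 for Ptprc and 0.36 for Lyz2. The median of the immune list was 0.09. Of 3 endothelial genes Flt1, a receptor for vascular growth factor, rose 2.64-fold (edgeR adjusted p = 0.000136). Pecam1 and Tek did not follow it, with log2 fold changes of -0.50 and 0.07 that were not called. Of 8 fibroblast and 5 muscle genes 0 were called, with median log2 fold changes of 1.03 and 0.21.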

How the data were processed

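The authors deposited a table of raw counts per Ensembl gene for 16 libraries, whose columns were matched to the samples by library name. The labels name the NEBNext Ultra Directional kit for the libraries. STAR, HTSeq, FastQC and DESeq2 are named, with no version, in the submitters' processing notes. For the genome build and the strand setting of the counting, nothing is stated in the labels or notes. Symbols and exon lengths came from GENCODE M21 (GRCm38), which named 49326 of 49585 genes. Of counts from 2 to 101, 68.8% were even, so counting error may be understated.

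edgeR 4.0.16 (R 4.3.3) was applied with filterByExpr, TMM factors, robust quasi-likelihood fit with 1 mean per group over all 16 libraries, and two-sided F tests adjusted by Benjamini-Hochberg over 17741 genes at 0.05. Each SE is the log2 fold change divided by root F. Library totals were 33.0 to 53.3 M counts, and replicates differed by more than counting error (chi-square per degree of freedom at least 41.75 over genes with 20 or more counts). CPM used library totals times TMM factors. The fits were tested on simulated data. Alternatives were RLE and upper-quartile factors, no filter on counts, DESeq2 1.42.0, limma voom 3.58.1, the compared groups alone, each library left out, and CPM without TMM factors. A covariate for 13 other hair keratins was added after the data were seen. Tables were made with pandas 2.3.3 and numpy 2.4.6, and figures with matplotlib 3.10.9, under Python 3.11.15.

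The members and gene lists were chosen with earlier results of these data known. Named genes were the 10 members, Cebpb, the other hair keratins, the 2 most abundant Krtap genes, genes with small p in the averaged comparison (at most 4 per list), and the 8 genes most like the mean z profile of the sheath and of the shaft. The UVB value of S100a3, the Krt72 and Krt73 shares, the Krtap ratio and the values by Xist and Ddx3y were chosen after their values were seen.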

Additional observations from a re-analysis of the deposited data

How the results depend on the processing

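The count of 2 members called higher with UVB in knockouts became 1 with RLE or upper-quartile factors, 5 with DESeq2, and 0 with no count filter, limma voom or the compared groups alone, and it ranged from 0 to 7 when each library was left out. Of all genes, 16.5%, 15.5%, 17.8%, 9.04%, 19.5% and 17.6% were called higher under these settings in the same order, against 18.1% in the reported fit, and 13.2 to 17% with a library left out. The compared groups alone also gave 2 members called lower in unexposed knockouts instead of 0. In the other comparisons 0 members were called under any of these alternatives. Leaving out each library, the log2 fold change between exposed genotypes ranged from -1.03 to 0.22 for Krt25, -0.79 to 0.13 for Krt27, -1.15 to 0.36 for Krt28, -0.83 to 0.32 for Krt71, -0.79 to 0.42 for Krt73, -0.38 to 0.67 for Krt31 and -0.95 to 0.17 for Krt81. The difference of UVB responses of Krt73 ranged from -0.11 to 1.08, and was -0.13 with limma voom. Member levels without TMM factors stayed within 1 SD in all 4 groups.

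With the covariate for the other hair keratins, 5 members were called lower with UVB in controls and 7 in knockouts, against 16.3% and 11.2% of all genes. Log2 fold changes then turned sign between unexposed genotypes for Krt25 (0.08), Krt27 (0.14), Krt71 (0.26), Krt73 (0.91), Krt31 (0.81), Krt34 (0.06), Krt81 (0.21) and Krt86 (0.12), between exposed genotypes for Krt31 (0.22), and in the average for Krt71 (0.12), Krt73 (0.39), Krt31 (0.52) and Krt81 (0.08). The smallest edgeR adjusted p of these was 0.124, so they were not called. With UVB in controls the log2 fold changes were -0.59 for Krt25, -0.69 for Krt27, -0.59 for Krt28, -0.70 for Krt71, -0.71 for Krt72, -0.45 for Krt73, -0.42 for Krt31, -0.88 for Krt34, -0.65 for Krt81 and -0.64 for Krt86. In knockouts they were -0.81, -0.97, -0.43, -0.98, -1.07, -1.50, -1.01, -1.30, -0.90 and -1.05 in the same order. The difference of responses was -0.21 for Krt25, -0.28 for Krt27 and Krt71, -0.36 for Krt72, -1.06 for Krt73, -0.59 for Krt31, -0.42 for Krt34, -0.25 for Krt81 and -0.41 for Krt86. Of its 13 genes, 1 was called with UVB in controls and 5 in knockouts, and the cause of each change was not tested. It was chosen after the data were seen, and it was also run once with each library left out, which is not reported here.

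Over all genes, DESeq2 called 798 against 373 with edgeR between unexposed genotypes, 1654 against 830 after UVB and 52 against 0 for the difference of responses, where no count filter gave 2 and the covariate 1. The covariate gave 233 between unexposed genotypes. Leaving out a library gave 134 to 435 and 419 to 1356 for the genotypes without and with UVB.

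No paired analysis was possible because replicate numbers follow the order of the samples and pair nothing across groups. The SE of the members' log2 fold changes was 0.77 to 1.00 within an exposure or genotype. It holds both the spread between libraries and counting error, and the part of each was not tested.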
